A study of Mus musculus with 48 samples.

Results

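The 46 genes of S phase and DNA replication described here encode the proteins that mark replication origins, open the DNA helix, copy it, supply its nucleotides and package the new DNA. They were chosen by gene symbol, from a list of replication genes, among the 24996 genes of a table of read counts per gene. All 46 were in the table and all 46 passed the filter on low counts, which 18044 genes passed. The RNA came from suspended epidermal cells of aged (80 to 90 weeks) and adult (18 to 25 weeks) mice, taken every 4 h over a day at ZT0, ZT4, ZT8, ZT12, ZT16 and ZT20, where ZT (Zeitgeber time) counts hours from lights on. There were 4 libraries of ribosomal RNA depleted total RNA in each of the 12 groups, 48 in all. The labels give no genotype, strain, sex or treatment, and do not say that the 4 replicates were separate animals, so p-values measure the spread between libraries, which may be partly technical. Library totals lay between 40761084 and 49229498 counts, with a median of 45299729.5. Basal keratinocyte markers (8 of 8 tested) summed to 8846 to 19060 CPM (counts scaled to a common library size) in the aged libraries and 8833 to 17130 CPM in the adult libraries, with no marker at 0. The aged ZT20 replicates 1 and 2, the adult ZT12 replicates 3 and 4 and the whole of ZT20 moved some counts of called genes, and values without them are given beside the results they moved most.

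DNA replication is restricted to S phase by a division of labour in time. In G1 the origin recognition complex, with CDC6 and CDT1, loads the MCM2 to MCM7 helicase onto origins, a step called licensing. At the entry into S phase CDC45 and the GINS complex switch the helicase on, and primase and the polymerases start copying, held on the DNA by the sliding clamp PCNA. Many of these genes are induced together by E2F transcription factors, which cyclin E with its kinase partner releases from the RB proteins. In the epidermis most cells in S phase lie in the basal layer and in hair follicles, and in mouse skin the share of basal cells in S phase is known to vary with the time of day.

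The promoter sequences of 5 origin licensing genes with among the widest daily swings in these data, and of thymidylate synthase as a contrast, are shown because they hold or lack the letters that E2F proteins are known to bind. RefSeq windows (GRCm38.p6), which run from upstream of the annotated start to just beyond it, were given for 37 of the 46 genes. The letters searched on both strands were TTTCCCGC, TTTGGCGC, TTTCGCGC and TTTGCCGC, and capitals mark each match, overlapping matches being joined. The windows, written 5′ to 3′ on the strand of the gene, are Orc1 chr4:108579204-108579503 (plus strand), Mcm3 chr1:20820263-20820562 (minus strand), Mcm6 chr1:128359656-128359955 (minus strand), Cdc6 chr11:98907901-98908200 (plus strand), Cdt1 chr8:122567765-122568064 (plus strand) and Tyms chr5:30073576-30073875 (minus strand).
Orc1: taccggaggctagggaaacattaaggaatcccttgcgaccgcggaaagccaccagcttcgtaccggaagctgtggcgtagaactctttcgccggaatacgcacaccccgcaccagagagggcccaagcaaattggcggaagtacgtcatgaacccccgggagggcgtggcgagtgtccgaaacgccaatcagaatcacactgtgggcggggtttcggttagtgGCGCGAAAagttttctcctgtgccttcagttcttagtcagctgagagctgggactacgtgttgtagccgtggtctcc
Mcm3: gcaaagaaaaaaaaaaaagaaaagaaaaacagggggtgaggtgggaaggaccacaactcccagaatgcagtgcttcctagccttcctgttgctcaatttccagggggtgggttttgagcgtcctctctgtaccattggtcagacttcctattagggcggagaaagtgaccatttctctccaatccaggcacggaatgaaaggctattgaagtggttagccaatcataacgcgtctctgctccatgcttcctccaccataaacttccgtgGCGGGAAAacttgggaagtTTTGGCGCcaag
Mcm6: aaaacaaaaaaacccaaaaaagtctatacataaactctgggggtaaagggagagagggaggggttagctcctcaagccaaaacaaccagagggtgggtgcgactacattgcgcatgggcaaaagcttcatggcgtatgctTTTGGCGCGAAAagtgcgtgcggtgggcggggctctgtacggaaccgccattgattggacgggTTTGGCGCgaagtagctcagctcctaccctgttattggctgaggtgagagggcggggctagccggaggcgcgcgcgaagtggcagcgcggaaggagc
Cdc6: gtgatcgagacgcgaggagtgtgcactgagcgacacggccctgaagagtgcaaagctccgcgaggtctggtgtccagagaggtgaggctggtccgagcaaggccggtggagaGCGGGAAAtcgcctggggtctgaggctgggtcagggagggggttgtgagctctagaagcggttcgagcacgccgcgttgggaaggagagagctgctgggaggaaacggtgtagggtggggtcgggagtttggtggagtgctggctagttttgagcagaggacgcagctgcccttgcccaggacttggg
Cdt1: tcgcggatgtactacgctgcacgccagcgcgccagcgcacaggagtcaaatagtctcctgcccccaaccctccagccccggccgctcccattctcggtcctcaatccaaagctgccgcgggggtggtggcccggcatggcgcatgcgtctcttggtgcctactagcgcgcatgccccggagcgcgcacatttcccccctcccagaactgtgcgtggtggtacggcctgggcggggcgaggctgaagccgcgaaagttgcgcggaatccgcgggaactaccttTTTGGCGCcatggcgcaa
Tyms: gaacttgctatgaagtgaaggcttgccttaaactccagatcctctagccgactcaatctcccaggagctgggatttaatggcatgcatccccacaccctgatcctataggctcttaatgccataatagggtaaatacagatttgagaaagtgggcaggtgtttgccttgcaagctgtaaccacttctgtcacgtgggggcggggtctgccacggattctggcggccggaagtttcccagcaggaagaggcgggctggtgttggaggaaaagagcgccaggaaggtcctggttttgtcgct
Counting the start base as 1 and the base before it as -1, the match begins at base -27 in Orc1, at bases 20 and 39 in Mcm3, at bases -110, -106 and -47 in Mcm6, at base -138 in Cdc6 and at base 33 in Cdt1. The first 2 matches of Mcm6 overlap by part of their letters. No match lay in the Tyms window. The Mcm2 window, not shown, held no match either, although Mcm2 had a wider fitted swing than Mcm3, Mcm6, Cdc6 and Cdt1 in both ages. E2F letters were found in 14 of the 37 genes with a window, or 37.8%, against 4.15% of the 13055 tested genes with a window. Counted per window, they were in 33.3% of the 42 windows of the 37 genes, against 2.26% of all 32851 windows. The letters CCAAT were in 22 of the 37, or 59.5%, against 42.0% of the tested genes, and TTTGAA, the cell cycle homology letters known from G2 genes, in 4 of the 37, or 10.8%, against 15.3%. A match is a description of the letters and not a measured binding site.

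Expression levels differed widely between the genes. Levels were compared per kilobase of annotated exon (GENCODE M21), since longer genes collect more reads. Pcna, the sliding clamp that tethers polymerases to DNA, had the highest level of the 46 per kilobase, at 39.6 ± 8.403 CPM per kilobase in aged and 35.5 ± 6.63 in adult libraries (SD, n = 24 each). Tyms, which makes thymidylate, came next at 17.3 ± 1.97 CPM per kilobase in aged and 15.4 ± 1.71 in adult libraries, and Mcm6, a helicase subunit, followed at 15.8 ± 5.25 in aged and 14.3 ± 4.27 in adult libraries, and these neighbours in the order differed by less than the SD of Mcm6. Mcm10, a helicase activator, was lowest at 0.476 ± 0.201 CPM per kilobase in aged and 0.445 ± 0.170 in adult libraries. The next lowest were Ccne1 (cyclin E1) at 0.659 ± 0.244 in aged and 0.642 ± 0.210 in adult libraries, and Orc1, the largest subunit of the origin recognition complex, at 0.831 ± 0.411 in aged and 0.623 ± 0.308 in adult libraries. The median over the 46 genes was 3.92 CPM per kilobase. Without length correction Ccne1 had the fewest reads, with at least 30 in every library, and Gins1, a GINS subunit, averaged 3.51 ± 1.18 CPM in aged and 2.96 ± 0.8002 CPM in adult libraries (SD, n = 24 each). Pcna and Tyms have named pseudogenes in RefSeq, and how reads shared with them were counted is not given in the sources used here.

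Of the 46 S phase genes, 31 rose and fell over the day in at least 1 age. A cosine with a 24 h period was fitted to each gene in each age across all 18044 tested genes (edgeR's quasi-likelihood test, Benjamini-Hochberg adjusted p under 0.05). It called 28 of the 46 genes in aged epidermis, where 5.87% of all tested genes were called, and 24 of the 46 in adult epidermis, where 14.6% of all tested genes were called. In both ages 21 genes were called, and 15 were called in neither. The mean over libraries was highest at ZT12 for 39 of the 46 genes in aged epidermis, and at ZT16 for 36 of the 46 in adult epidermis. It was lowest at ZT0 for 23 genes and at ZT4 for 20 in aged epidermis, and at ZT4 for 40 genes in adult epidermis. The adult ZT12 libraries lay far apart, with a mean over the 46 genes (centred log2 CPM) of 0.46, 0.44, -0.56 and -0.17. The adult ZT16 libraries lay between 0.17 and 0.27, so the time of the highest adult mean rests on the low ZT12 replicates 3 and 4. In bulk RNA, fewer cells in S phase and less RNA per cell cannot be told apart.

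**Figure D1:**
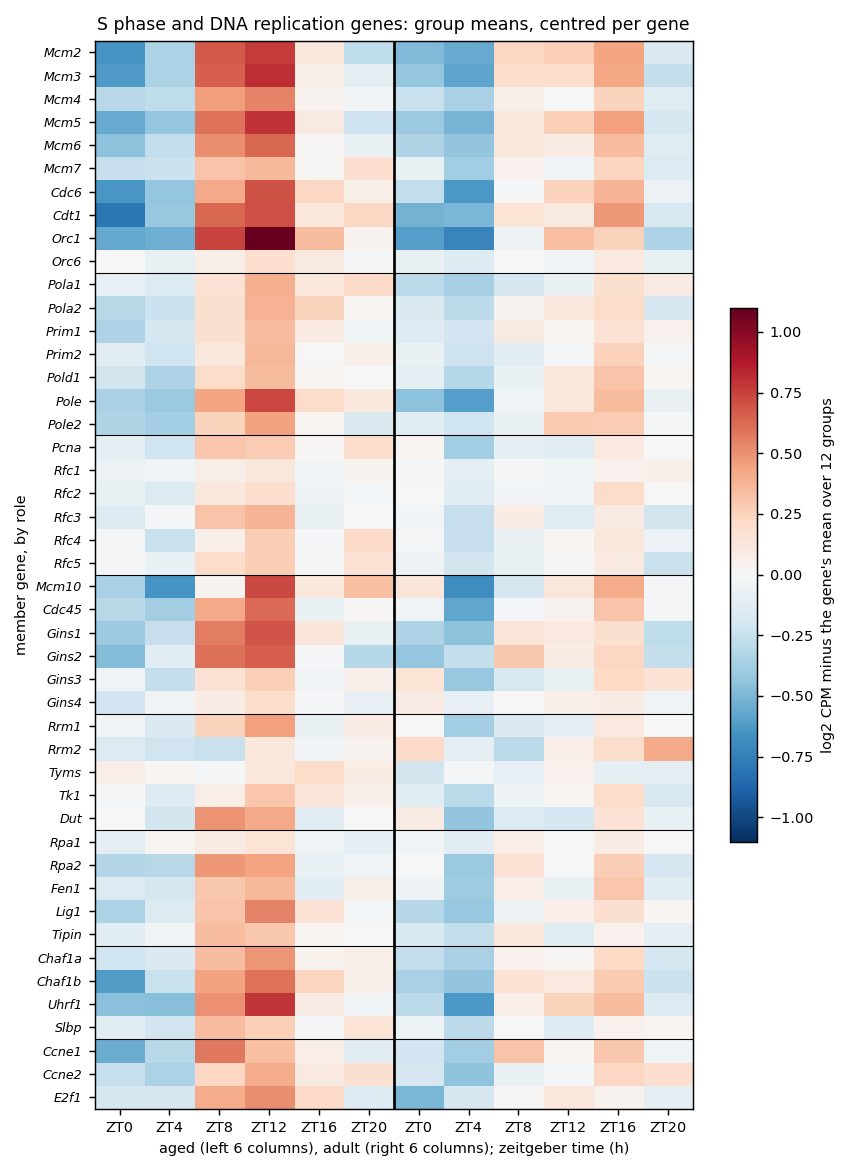
Group means of the 46 genes (rows, by role), each as log2 CPM minus the gene's mean over the 12 groups; the left 6 columns are aged and the right 6 adult, ZT0 to ZT20. Highest means lie at ZT12 in 39 genes in aged epidermis and at ZT16 in 36 genes in adult epidermis, and low means at ZT0 and ZT4. In the mean over the 46 genes, adult ZT12 replicates 1 and 2 lie above all adult ZT16 libraries and replicates 3 and 4 below them.

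Origin licensing genes had the widest daily swings. The cosine was called for 8 of the 10 in aged and 7 of the 10 in adult epidermis, with a median amplitude (middle to peak, log2) over the 10 genes of 0.64 in aged and 0.48 in adult. Here and in the next paragraphs on rhythm, libraries are given at the times of the highest and the lowest group mean in each age. A lack of overlap between them is partly due to that choice, and its share over all tested genes is not given here. Mcm2, a subunit of the replicative helicase, had 43.1, 46.8, 36.5 and 35.9 CPM at ZT12 and 15.7, 17.8, 14.4 and 12.8 CPM at ZT0 in aged libraries. In adult libraries Mcm2 had 35.1, 30.5, 30.3 and 32.4 CPM at ZT16 and 20.3, 15.7, 13.5 and 15.4 CPM at ZT4. In each age these 2 times did not overlap. The fitted amplitude of Mcm2 was 0.71 with a peak at 11.4 h in aged epidermis (adjusted p = 8.35e-05) and 0.56 with a peak at 13.1 h in adult epidermis (adjusted p = 0.00159). Orc1 had 5.65, 4.24, 5.06 and 4.71 CPM at ZT12 and 1.54, 1.89, 1.25 and 1.42 CPM at ZT0 in aged libraries, again without overlap. In adult libraries Orc1 had 5.09, 4.555, 1.37 and 2.00 CPM at ZT12 and 1.78, 1.19, 1.00 and 1.51 CPM at ZT4, which overlapped. Its amplitude was the largest of the 46 in both ages, 0.82 in aged (peak at 12.3 h, adjusted p = 0.00031) and 0.61 in adult (peak at 13.2 h, adjusted p = 0.00615). Cdc6 and Cdt1, the loaders of the helicase, had amplitudes of 0.62 and 0.66 in aged and 0.45 and 0.54 in adult epidermis, and all 4 passed the test. Mcm3 and Mcm5, further helicase subunits, had amplitudes of 0.67 and 0.66 in aged and 0.53 and 0.52 in adult epidermis, and these 4 passed as well. Mcm6 was called in both ages and Mcm4 in aged epidermis (adult amplitude 0.28, adjusted p = 0.0754). Mcm7 (amplitudes 0.27 in aged and 0.21 in adult) and Orc6 (0.11 in aged and 0.09 in adult) were not called in either age.

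**Figure D2:**
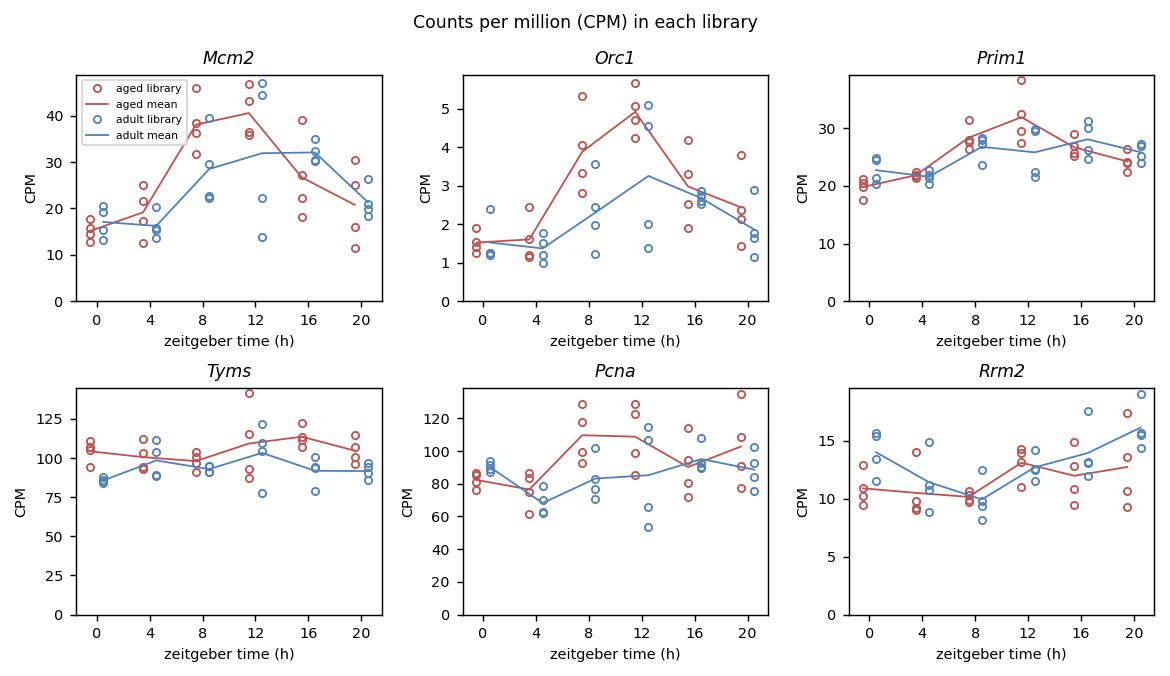
CPM in each library (circles) and the mean of 4 libraries (lines) against Zeitgeber time for 6 of the genes, aged left of adult at each time. Mcm2, Orc1 and Prim1 are highest around ZT12 in aged libraries, the adult ZT12 libraries lie far apart for Mcm2, Orc1 and Pcna, and Tyms spans 77.9 to 142 CPM over all libraries.

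The enzymes of the replication fork followed with smaller amplitudes. Among polymerases and primase, 6 of the 7 were called in each age, the exception being Prim2. The aged call of Pola1 was lost when any 1 of 12 libraries was left out (adjusted p up to 0.0914). Prim1, the catalytic primase subunit that lays down RNA primers, had the smallest p of the 46 in aged epidermis (amplitude 0.32, peak at 12.2 h, adjusted p = 2.83e-06). Its aged libraries had 32.4, 38.2, 27.4 and 29.5 CPM at ZT12 and 20.5, 17.6, 19.9 and 21.2 CPM at ZT0. Its adult libraries had 24.6, 26.3, 31.3 and 30.01 CPM at ZT16 and 20.3, 21.4, 22.7 and 21.9 CPM at ZT4 (amplitude 0.16, peak at 14.3 h, adjusted p = 0.0146). In both ages the 2 times were separate. Pole, the catalytic subunit of the leading strand polymerase, had an amplitude of 0.52 in aged (adjusted p = 0.00259) and 0.47 in adult epidermis (adjusted p = 0.00429), and Pola2, a subunit of polymerase alpha, had 0.35 in aged (adjusted p = 3.92e-05) and 0.23 in adult (adjusted p = 0.0051). Of the 6 helicase activation genes, 4 were called in aged and 3 in adult epidermis. Gins2 of the GINS complex had an amplitude of 0.59 with a peak at 10.6 h in aged (adjusted p = 7.29e-05), and 0.40 with a peak at 11.7 h in adult epidermis (adjusted p = 0.00827). Gins3 had an aged amplitude of 0.17 (adjusted p = 0.425) and an adult amplitude of 0.28 with a late peak at 18.3 h (adjusted p = 0.0359), a difference between ages that did not pass its test (adjusted p = 0.632). The adult call was lost when any 1 of 7 libraries was left out for Gins3, and any 1 of 2 for Gins1.

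Few genes of the clamp and its loader were called. Of Pcna and Rfc1 to Rfc5, the subunits of the clamp loader, Rfc3 was called in aged epidermis (amplitude 0.25, peak at 10.4 h, adjusted p = 0.0429) and none in adult epidermis. Pcna had 129, 92.5, 118 and 99.6 CPM at ZT8 and 86.5, 74.7, 83.4 and 61.3 CPM at ZT4 in aged libraries, without overlap. In adult libraries it had 92.55, 90.03, 89.67 and 108.1 CPM at ZT16 and 78.45, 62.4, 61.98 and 69.9 CPM at ZT4, also without overlap. These times were picked for their high and low means, so the lack of overlap alone does not show a daily change. The cosine was called in neither age for Pcna. Its amplitude was 0.19 in aged (adjusted p = 0.267) and 0.17 in adult epidermis (adjusted p = 0.28). Among single strand binding, maturation and fork protection genes, Rpa1, Rpa2, Lig1 and Tipin were called in aged epidermis and Lig1 in adult. The aged call of Tipin was lost when any 1 of 22 of the 48 libraries was left out (adjusted p up to 0.101). Lig1, the ligase that joins Okazaki fragments, had amplitudes of 0.40 in aged and 0.30 in adult epidermis. Rpa1, the large subunit of the single strand binding protein, had the earliest aged peak of the called genes, at 9.54 h, with an amplitude of 0.13 (adjusted p = 0.0168).

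The 5 genes of nucleotide supply make the building blocks of DNA. None of the 5 was called in aged epidermis, and Rrm2 and Tk1 were called in adult epidermis. Rrm2, the S phase subunit of ribonucleotide reductase, had 13.2, 14.3, 10.98 and 13.98 CPM at ZT12 and 10.7, 9.93, 9.72 and 10.3 CPM at ZT8 in aged libraries, without overlap (amplitude 0.16, adjusted p = 0.299). In adult libraries Rrm2 had 15.7, 15.5, 19.0 and 14.4 CPM at ZT20 and 8.14, 12.5, 9.78 and 9.37 CPM at ZT8, also without overlap. Its fitted adult peak at 19.5 h was the latest of the 46 (amplitude 0.31, adjusted p = 0.00463). Tk1, the salvage kinase of thymidine, had amplitudes of 0.18 in aged (adjusted p = 0.0847) and 0.19 in adult epidermis (adjusted p = 0.0303), a call lost when any 1 of 4 libraries was left out. Tyms had amplitudes of 0.09 in aged and 0.08 in adult epidermis (adjusted p = 0.458 in aged and 0.356 in adult). Chaf1a, Chaf1b and Uhrf1, which assemble chromatin and maintain DNA methylation behind the fork, were called in both ages with amplitudes between 0.32 and 0.59 in aged and between 0.28 and 0.47 in adult epidermis. Slbp, which binds histone mRNA, was not called. Of the G1/S control genes, Ccne2 (cyclin E2) and E2f1 were called in both ages. E2f1 had 8.89, 8.405, 8.58 and 8.19 CPM at ZT12 and 5.10, 5.11, 5.43 and 5.23 CPM at ZT0 in aged libraries, without overlap (amplitude 0.39, adjusted p = 0.000115), and its adult amplitude was 0.26 (adjusted p = 0.00964). Ccne1 was not called, with amplitudes of 0.43 in aged and 0.29 in adult epidermis at its low counts.

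Of the genes with a promoter window, E2F letters were in 13 of the 24 called in at least 1 age and in 1 of the 13 called in neither, which was Mcm7. This split uses measured values and is given as a description. The Mcm2, Prim1, Pola2 and E2f1 windows held none of the E2F letters searched, although these genes were called in both ages.

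The fitted peaks lay earlier in aged than in adult epidermis, but the difference did not pass a test and its size varied between fits. The circular mean of the peaks was 11.9 h for the 28 genes called in aged epidermis and 14.1 h for the 24 called in adult epidermis, and over all 46 genes it was 12.3 h in aged and 14.4 h in adult. All 21 genes called in both ages peaked earlier in aged, by a median of 1.502 h (0.15 to 2.59 h). Over all 46 the aged peak was earlier for 45, the exception being Tyms. The fitted amplitude was larger in aged epidermis for 42 of the 46, with medians of 0.32 in aged and 0.27 in adult. The 46 moved together from library to library, so these counts of genes are not independent. The shares of all tested genes with an earlier peak or a larger amplitude in aged are not given here. The test of the rhythm difference itself called none of the 46 and 0% of all tested genes. At an unadjusted p under 0.05 it held 4 of the 46 (Prim1, Gins4, Rpa1 and Gins3), or 8.70%, against 7.35% of all tested genes, and DESeq2 also called none of the 46. Prim1 came nearest (adjusted p = 0.432). Without ZT20 the circular mean over all 46 was 11.48 h in aged and 14.93 h in adult epidermis, and the 21 genes lay earlier by a median of 2.41 h, 20 of them earlier in aged. Leaving out each library in turn, the circular mean over all 46 lay between 11.8 and 12.6 h in aged and between 14.0 and 15.1 h in adult epidermis.

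**Figure D3:**
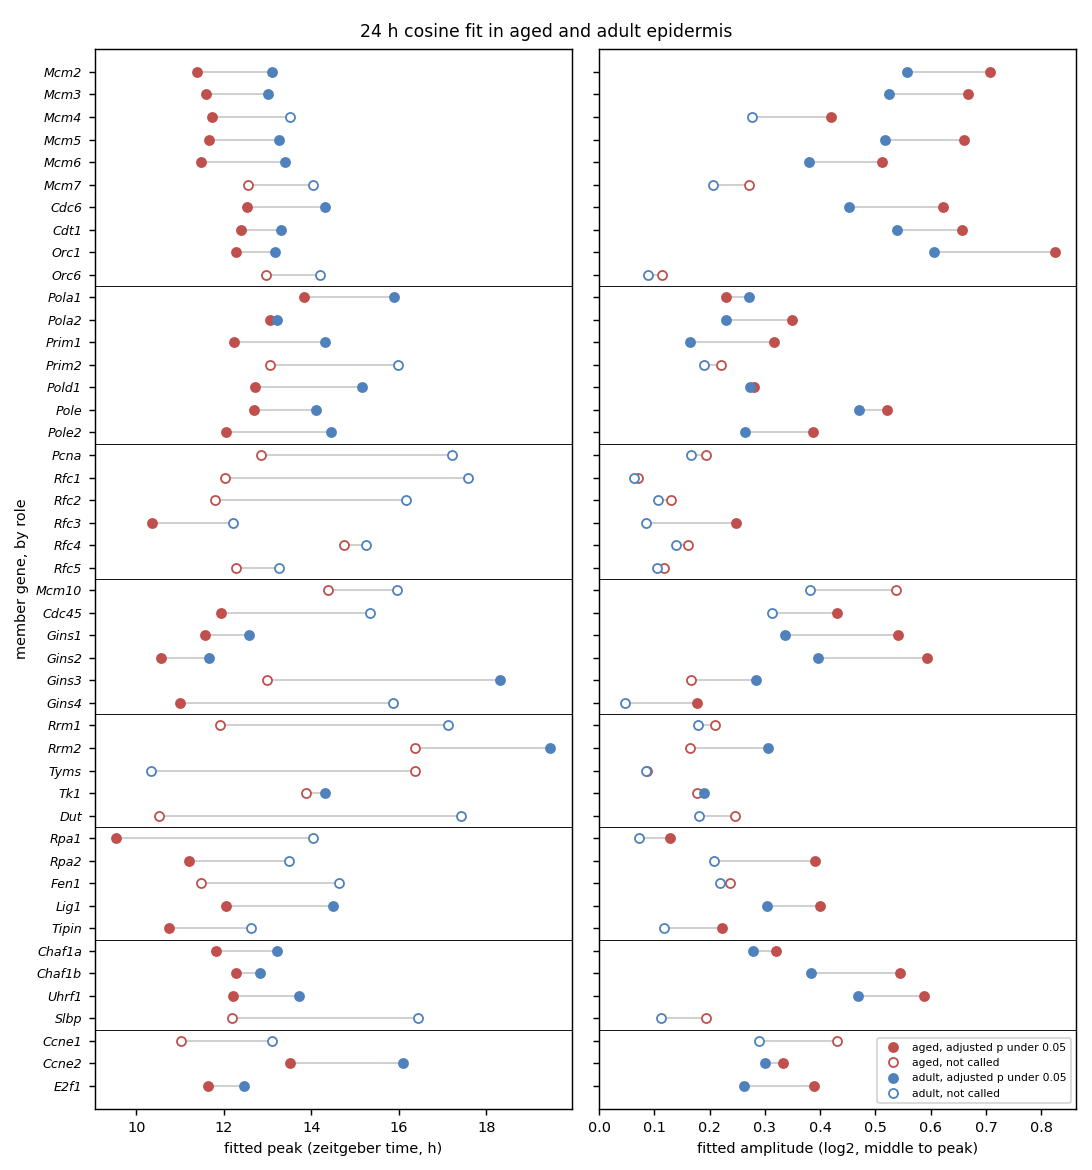
Fitted peak (left, Zeitgeber time in h) and amplitude (right, log2) of the 46 genes by role, with filled points where the 24 h cosine was called and grey lines joining the ages. Aged peaks lie left of adult peaks for 45 of the 46 genes, and no difference between the ages was called.

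The fitted peaks of the ages lay closer together in fits without 2 adult libraries or with marker genes of cell types as covariates. At ZT12 the adult replicates 1 and 2 had 44.5 and 47.1 CPM of Mcm2, like the aged libraries at that time, whereas adult replicates 3 and 4 had 13.8 and 22.2 CPM. The mean over the 46 genes (centred log2 CPM) was 0.56, 0.58, 0.30 and 0.38 in the aged ZT12 libraries, and 0.46, 0.44, -0.56 and -0.17 in the adult ZT12 libraries. The same 2 adult libraries were low for the basal keratinocyte markers, with list means of 0.27, 0.40, 0.08 and -0.03 in aged and 0.32, 0.26, -0.67 and -0.62 in adult libraries. Their Langerhans cell marker means were low too, at 1.24, 0.29, 0.01 and -0.23 in aged and 1.14, 0.99, -1.44 and -0.61 in adult libraries. Without these 2 libraries the circular mean peak over the 46 genes was 12.3 h in aged and 13.7 h in adult epidermis, and the amplitude was larger in aged for 27 of the 46. That fit called 31 of the 46 in aged and 32 in adult epidermis, where it called 6.72% of all tested genes in aged and 12.1% in adult. With the means of both marker lists added to the fit as covariates, the peaks were 12.6 h in aged and 13.1 h in adult, 31 of the 46 peaked earlier in aged, and 42 were called in aged and 31 in adult epidermis. The share of all tested genes called was higher in that fit too, at 14.7% in aged and 28.9% in adult. Both fits were chosen after the data were seen. The 2 adult libraries left out were those low for the 46 genes, so a smaller distance is partly due to that choice. The aged ZT12 replicates 3 and 4 also had lower means of the 46 genes and of both marker lists than replicates 1 and 2, and they were kept. None of the 8 markers of either list was called rhythmic in adult epidermis, and Trp63 was the only one called in aged epidermis.

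**Figure D4:**
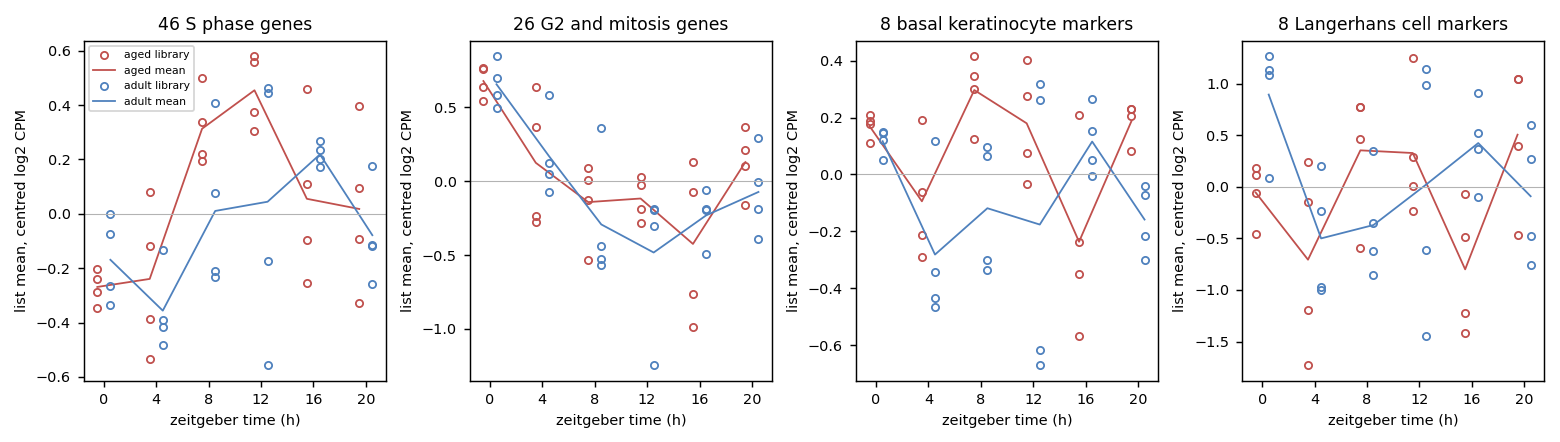
List means (centred log2 CPM) in each library (circles) and their mean per group (lines) against Zeitgeber time, aged left of adult: the 46 S phase genes, 26 G2 and mitosis genes, 8 basal keratinocyte markers and 8 Langerhans cell markers. The adult ZT12 libraries split into a high and a low pair in the S phase, basal and Langerhans panels.

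Averaged over the 6 times, few of the S phase genes passed the test for age. The comparison of aged with adult epidermis used edgeR's quasi-likelihood test with Benjamini-Hochberg adjusted p. It called 7 of the 46 higher in aged, where 17% of all tested genes were called higher. None was called lower, where 16.2% of all tested genes were called lower. DESeq2 also called 7 of the 46, with 6318 of all genes called in either direction. In either direction 15.2% of the 46 were called, against 33.1% of all tested genes. The log2 fold change was positive for 42 of the 46, against 52.2% of all tested genes. Its median was 0.11, against 0.01 over all tested genes. At an unadjusted p under 0.05 there were 16 of the 46, or 34.8%, against 43.1% of all tested genes. The called genes were Tyms, Pola1, E2f1, Rfc5, Tipin, Tk1 and Orc1, spread over 6 of the 8 roles. The 7 became 3 without ZT20, 12 without replicates 1 and 2 of aged ZT20 and 4 without aged ZT16 replicate 4. They became 14 without adult ZT12 replicate 1, and 11 without adult ZT12 replicate 2 or adult ZT8 replicate 2. Over all tested genes 5976 were called in either direction, and 5458 to 6699 with 1 library left out. The 6699 came without adult ZT12 replicate 1. Other lists moved with age as well. Of 10 markers of follicle stem cells and the outer root sheath, 8 were called lower and none higher in aged, with summed levels of 1242 to 2338 CPM in aged and 1459 to 3028 CPM in adult libraries. Of 10 differentiated keratinocyte markers 6 were lower and 1 higher, and of 12 immediate early genes 9 were higher and none lower. Their part in the result was not tested.

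Tyms had from 87.0 to 142 CPM in the 24 aged libraries (median 104) and from 77.9 to 122 CPM in the 24 adult libraries (median 92.3). The ages overlapped over the whole day. Its log2 fold change was 0.16 (SE 0.04, adjusted p = 0.00447). At ZT16 the aged libraries had 122, 113, 112 and 107 CPM of Tyms and the adult libraries 78.9, 94.1, 93.7 and 100.8 CPM, without overlap. At ZT0 they had 105, 111, 94.2 and 107 CPM in aged and 84.7, 88.0, 86.2 and 84.0 CPM in adult libraries, again without overlap, although neither time passed the test on its own. All 4 aged libraries lay above all 4 adult ones for 4.62% of all tested genes at ZT16 and 10.7% at ZT0. Pola1, the catalytic subunit of polymerase alpha, had from 32.4 to 60.7 CPM in aged (median 43.2) and from 25.7 to 53.0 CPM in adult libraries (median 37.7), 0.21 higher on the log2 scale in aged (SE 0.06, adjusted p = 0.00859). E2f1, the transcription factor, had from 4.36 to 8.89 CPM in aged (median 6.51) and from 3.65 to 8.71 CPM in adult libraries (median 5.69), 0.20 higher on the log2 scale in aged (SE 0.06, adjusted p = 0.0114). At ZT8 its 4 aged libraries lay above all 4 adult ones, at 7.95, 8.18, 7.49 and 8.03 CPM in aged against 5.70, 6.88, 5.88 and 5.68 CPM in adult, as for 5.54% of all tested genes at that time.

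Rfc5 averaged 18.6 ± 2.76 CPM in aged and 16.6 ± 2.43 CPM in adult libraries (SD, n = 24 each), 0.17 higher on the log2 scale in aged (SE 0.06, adjusted p = 0.0164). Tipin, which protects stalled forks together with Timeless, averaged 12.3 ± 2.13 CPM in aged and 10.9 ± 1.77 CPM in adult libraries (log2 fold change 0.17, adjusted p = 0.0289). Tk1 averaged 15.7 ± 2.31 CPM in aged and 14.2 ± 2.31 CPM in adult libraries (0.14, adjusted p = 0.0351). Orc1 averaged 2.89 ± 1.43 CPM in aged and 2.17 ± 1.07 CPM in adult libraries, the largest fold change of the 46 at 0.35 (SE 0.14, adjusted p = 0.0474). The call of Orc1 was lost when any 1 of 30 of the 48 libraries was left out, that of Tk1 with any 1 of 8 and that of Tipin with 1. These SDs span the 6 times as well as the libraries. Exons of 17 of the 46 genes overlap those of another gene, 15 of them on the opposite strand, and Rfc5 shares 499 exon bases with Wsb2 and Orc1 376 with Gm12743, a processed transcript. The strand setting of the counting is not given in the sources used here, so reads of such pairs may not have been told apart.

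Rrm2 had the lowest fold change of the 46 and was not called (log2 fold change -0.16, SE 0.07, adjusted p = 0.0662). It averaged 11.6 ± 2.25 CPM in aged and 13.0 ± 2.72 CPM in adult libraries. With 1 library left out in turn, Rrm2 was called lower in 8 of the 48 fits (edgeR adjusted p down to 0.021). The other 3 with a negative value were Gins4 (-0.03), Pole2 (-0.03) and Rfc2 (-0.0044). Mcm2 (0.09, adjusted p = 0.576), Pcna (0.15, adjusted p = 0.0944) and Ccne1 (0.02, adjusted p = 0.929) were not called. With 1 library left out, Gins1 was called higher in 6 of the 48 fits, Pole in 2 and Pcna in 1. Without the adult ZT12 replicates 3 and 4 the called genes were Pola1, Tyms and E2f1. With the marker lists as covariates there were 8 called higher (Gins1 and Pcna added and Tk1 lost).

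**Figure D5:**
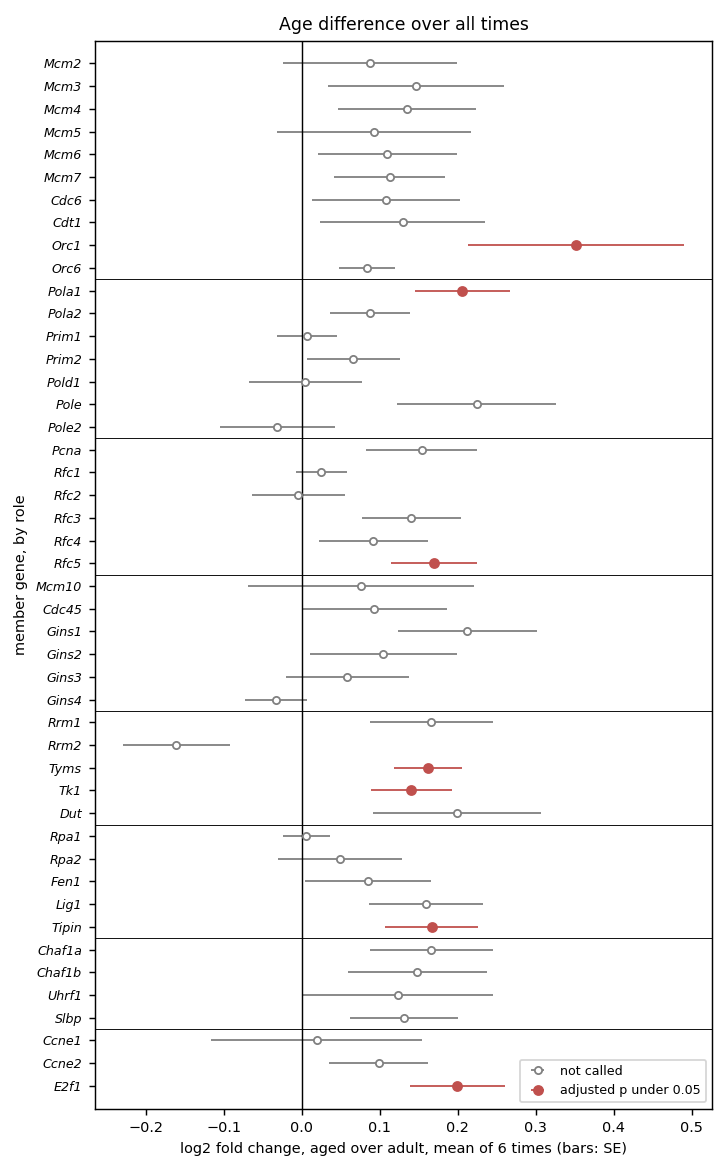
Log2 fold change of aged over adult epidermis averaged over the 6 times for the 46 genes by role, with SE bars; filled points have an adjusted p under 0.05. Of the 46 values 42 are above 0, the 7 called genes among them, and Rrm2 is the lowest.

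At single times the sign of the median difference varied, while almost no gene passed the test. The median log2 fold change over the 46 was -0.09 at ZT0 and 0.16 at ZT4, then 0.29 at ZT8 with 0.37 at ZT12, before -0.14 at ZT16 and 0.12 at ZT20, while the median over all tested genes stayed between -0.01 and 0.02. All 46 were positive at ZT8 and at ZT12, where 50.8% and 52.4% of all tested genes were positive. At ZT16 42 of the 46 were negative, where 49.3% of all tested genes were positive. The 46 moved together from library to library, so their signs are not independent. No S phase gene was called at ZT0 (4.46% of all tested genes called), ZT4 (0.632%), ZT8 (2.19%), ZT12 (1.1%) or ZT16 (1.97%), and 1 was called at ZT20 (20%). At an unadjusted p under 0.05 edgeR held 16 of the 46 at ZT12, 5 each at ZT0 and ZT8, 2 at ZT20 and 1 each at ZT4 and ZT16. The 16 at ZT12 were 34.8% of the 46, against 15.2% of all tested genes, while at the other times the share of the 46 was below that of all tested genes, which was 20.6% at ZT0, 7.47% at ZT4, 20.1% at ZT8, 18.3% at ZT16 and 34.7% at ZT20. DESeq2 with its adjusted p called 1 at ZT0, 1 at ZT20 and none at the other times. Of all genes it called 1172 at ZT0 and 4026 at ZT20. The gene called at ZT20 was Rfc5, with 18.1, 17.2, 22.7 and 20.1 CPM in aged and 14.4, 14.0, 16.7 and 13.7 CPM in adult libraries. The 4 aged libraries lay above the 4 adult ones, as for 12.3% of all tested genes at ZT20, and the log2 fold change was 0.41 (SE 0.13, adjusted p = 0.0293). The call was lost when replicates 1 and 2 of aged ZT20 were left out, and also when adult ZT20 replicate 1, 2 or 4 was. At ZT12 the absence of calls became 6 genes called without adult ZT12 replicate 1, 3 without adult ZT12 replicate 2 and 2 without aged ZT12 replicate 3. Over all tested genes 1356 were called at ZT12 without adult ZT12 replicate 1, against 199 with it. Gins4 came nearest at ZT0, with 10.8, 9.72, 11.05 and 11.6 CPM in aged and 11.8, 14.5, 13.6 and 13.6 CPM in adult libraries, with all 4 aged below all 4 adult libraries, as for 8.92% of all tested genes at ZT0 (log2 fold change -0.31, SE 0.10, adjusted p = 0.0602).

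The medians of the basal keratinocyte and Langerhans cell markers had the same sign as that of the 46 genes, except at ZT0 for the basal and at ZT4 for the Langerhans markers. Over ZT0 to ZT20 in order, the median log2 fold change was 0.09, 0.18, 0.43, 0.31, -0.35 and 0.34 for the basal markers, and -1.03, -0.02, 0.89, 0.06, -1.47 and 0.90 for the Langerhans markers. Summed over the list, basal markers had from 8846 to 15730 CPM in aged and from 13770 to 15940 CPM in adult libraries at ZT16, and Langerhans markers had from 148.6 to 258.3 CPM in aged and from 268.7 to 462.5 CPM in adult libraries. The Langerhans sums of the ages did not overlap at ZT16. With both list means as covariates the median over the 46 was 0.23 at ZT16, with 43 of the 46 positive, the opposite sign to the fit without them. It was -0.04 at ZT8, 0.21 at ZT12, 0.02 at ZT0, 0.09 at ZT4 and -0.17 at ZT20 in that fit. Without the adult ZT12 replicates 3 and 4 the median at ZT12 was -0.00078, with 23 of the 46 positive. The directions at ZT0, ZT8, ZT16 and ZT20 thus turned in the fit with covariates, where all 46 stayed positive at ZT12. The difference at ZT12 vanished only without the 2 adult libraries. They were left out because they were low for the 46 genes, so that change is partly due to the choice. A test of whether the age difference changes between times called none of the 46 and 0.283% of all tested genes. The lowest adjusted p was that of Prim1, at 0.192, and 3 of the 46, or 6.52%, had an unadjusted p under 0.05, against 17.1% of all tested genes.

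Within groups the S phase genes moved together from library to library. After each group's mean was removed, the median correlation between 2 of the 46 over the 48 libraries was 0.79, and 86.4% of the 1035 pairs were over 0.5. Points of such correlations share their library, its depth and its mix of cells. Tyms (-0.45) and Orc6 (0.41) were the only 2 of the 46 whose correlation with the mean of the other 45 was under 0.5, and Rrm2 (0.55) came next. Among 12856 other genes with a mean log2 CPM of at least 0, the 10 most like the mean of the 46 were Hells (0.97), Dtl, Smc2, Wdhd1, Fignl1, Timeless, Atad2, Ncapg2, Diaph3 and Ercc6l (0.94). Over the same libraries the mean of the 46 correlated at 0.99 with the other replication genes, 0.90 with the G1 and S cyclins, kinases and inhibitors, 0.84 with the G2 and mitosis genes, 0.83 with the E2F, RB and DREAM genes, 0.79 with the Langerhans cell list, 0.76 with the basal list, 0.71 with immediate early genes and -0.50 with differentiated keratinocyte markers.

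Replication genes outside the 46 were described in the same way. Of 36 further replication genes, 5 were called higher in aged and none lower over all times. Of all tested genes 17% were called higher and 16.2% lower. The cosine was called for 10 of the 36 in aged and 15 in adult epidermis, against 5.87% of all tested genes in aged and 14.6% in adult. Circular mean peaks of the called genes were at 12.5 h in aged and 15.03 h in adult. Donson, a fork protection factor, had the smallest p for age, averaging 11.9 CPM in aged and 8.63 CPM in adult libraries (log2 fold change 0.46, SE 0.05, adjusted p = 3.56e-09). Orc3, an origin recognition subunit (0.12), Nasp, a histone chaperone (0.13), Topbp1, a helicase activator (0.12), and Dnmt1, the maintenance DNA methyltransferase (0.07), were called higher as well. Timeless had a daily amplitude of 0.73 in aged and 0.49 in adult epidermis, and Hells, a chromatin remodeller, 0.70 in aged and 0.48 in adult, all 4 called. Mcmbp was called in adult epidermis at an amplitude of 0.10 (adjusted p = 0.00038).

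Some regulators upstream of S phase were called for age, in both directions. Of all tested genes 17% were called higher in aged and 16.2% lower. Of 18 E2F, RB and DREAM complex genes, 2 were called higher in aged (Rbl1 at 0.15 and Tfdp2 at 0.15) and 1 lower (Rb1, the retinoblastoma gene, at -0.14). The cosine was called for 7 of the 18 in aged and 5 in adult epidermis, against 5.87% of all tested genes in aged and 14.6% in adult. E2f8, a repressor of the E2F family, was among them, with a peak at 19.8 h in both. Of 17 tested G1 and S cyclins, kinases and inhibitors, 2 were called higher in aged (Cdk2 at 0.15 and Cdc25a at 0.14) and 2 lower (Ccnd3 at -0.10 and Cdkn1b, the inhibitor p27, at -0.11). Ccnd2, a D type cyclin that acts in G1, averaged 280 CPM in aged and 238 CPM in adult libraries and had amplitudes of 0.63 in aged and 0.61 in adult, peaking at 10.3 h in aged and 11.4 h in adult. Ccnd1 had amplitudes of 0.52 in aged and 0.55 in adult with peaks at 10.8 h in aged and 13.8 h in adult.

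The genes of G2 and mitosis peaked at another time of day. The cosine was called for 17 of the 26 in aged and 24 of the 26 in adult epidermis, against 5.87% of all tested genes in aged and 14.6% in adult. Circular mean peaks were at 0.83 h in aged and 0.41 h in adult, after lights on. The mean over the 46 S phase genes (centred log2 CPM) was lowest at ZT0 in aged epidermis (-0.27). In adult epidermis it was lowest at ZT4 (-0.36) and was -0.17 at ZT0. Called peaks of the G2 and mitosis genes ranged from 22.9 h to 2.51 h in aged and from 22.3 h to 2.46 h in adult. They overlapped with none of the called S phase peaks (9.54 to 13.8 h in aged and 11.7 to 19.5 h in adult). Cenpf, a kinetochore protein, had amplitudes of 0.48 in aged and 0.50 in adult, both called. The amplitude was larger in aged for 2 of these 26 genes, against 42 of the 46 S phase genes. Without the adult ZT12 replicates 3 and 4 it was larger in aged for 27 of the 46, and the count of that fit for the 26 genes is not given here. The rhythm difference between the ages was called for none of the tested genes. Over all times Ttk, a spindle checkpoint kinase (0.36, adjusted p = 0.000516), and Hmmr (0.11, adjusted p = 0.0353) were called higher in aged and none lower. Of all tested genes 17% were called higher and 16.2% lower.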

How the data were processed

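Read counts per gene in 48 libraries, whole numbers for 24996 Entrez gene identifiers, were deposited by the authors. Trim Galore, STAR 2.7.10a, featureCounts and the mouse genome mm10 (GRCm38) are named in the submitters' processing notes. The sources used here give no strand setting or annotation. A stranded total RNA kit with ribosomal RNA removal was used, per the labels' protocols. RefSeq (GRCm38.p6) named 23476 identifiers, and the other 1520 held 3.66% of counts.

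In R 4.3.3, edgeR 4.0.16 kept genes by its filter (minimum count 10, minimum total 15), scaled libraries by TMM and fitted robust quasi-likelihood models, either a mean for each group (36 residual degrees of freedom) or a 24 h cosine for each age (42). P-values were Benjamini-Hochberg adjusted over 18044 genes and called under 0.05. Log2 CPM used a prior count of 2. The typical biological coefficient of variation was 18.0%. DESeq2 1.42.0, other filters, a replicate block and leaving out libraries were alternatives. Scripts were tested on simulated data. Genes named with values were those called for age, those with the smallest p for rhythm, age by time and rhythm difference, the highest and lowest expressed, and Mcm2, Pcna, Rrm2, Ccne1 and E2f1, plus genes with the smallest p in other lists. Further genes were added after their values were seen. The 46 genes and all lists were chosen with earlier results of these data known.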

Additional observations from a re-analysis of the deposited data

Results flagged for a closer look

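In 10 of 264 groups of 4 libraries (22 items tested, the named genes in 12 groups each) 1 library stood apart from the other 3 by a gap that passed Dixon's test for outliers. Chance gives about 1 in 20. Aged libraries held 3 cases. Rrm2 had 14.1 CPM in aged ZT4 replicate 3, against 9.02 to 9.77 CPM in the other 3. Ccne1 had 2.84 CPM in the same library, against 0.840 to 1.16 CPM. Rpa1 had 53.15 CPM in aged ZT16 replicate 4, against 48.3 to 49.0 CPM.

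The adult libraries held 7 cases. Orc1 had 2.41 CPM in adult ZT0 replicate 3, against 1.20 to 1.25 CPM in the other 3. Adult ZT8 replicate 2 stood above its group for Pola2, at 14.6 CPM against 10.2 to 10.9 CPM, and for E2f1, at 6.88 CPM against 5.68 to 5.88 CPM. Pole had 25.1 CPM in adult ZT20 replicate 3, against 16.5 to 17.1 CPM. Pcna had 108.1 CPM in adult ZT16 replicate 4, against 89.7 to 92.6 CPM. At ZT4 in adult libraries, Gins4 was low in replicate 3, at 10.1 CPM against 12.2 to 12.5 CPM, and Rpa1 was high in replicate 1, at 49.0 CPM against 46.4 to 46.5 CPM.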

How the results depend on the processing

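The counts of 0 for the age difference between times, the rhythm difference, ZT4 and ZT8 stayed at 0 in every alternative run. The 28 genes with a rhythm in aged and 24 in adult epidermis became 24 to 32 and 21 to 28 with each library left out in turn, 19 and 15 at an adjusted p under 0.01, 28 and 22 without ZT20, 26 and 24 without the aged ZT20 replicates 1 and 2, and 42 and 31 with the covariates. A test of any difference between the 6 times called 23 in aged and 16 in adult. The 7 genes higher in aged over all times became 2 at an adjusted p under 0.01, 3 without ZT20, 12 without the aged ZT20 replicates 1 and 2, 3 without the adult ZT12 replicates 3 and 4, and 4 to 14 when 1 library was left out. The extremes came without aged ZT16 replicate 4 (4) and without adult ZT12 replicate 1 (14); 11 were called without adult ZT12 replicate 2 or adult ZT8 replicate 2. None lower became 0 to 1 in the same way, with Rrm2 called lower in 8 of the 48 fits. At ZT0 no call became 1 with DESeq2, 1 with the marker covariates, 1 without the adult ZT12 replicates 3 and 4, and 0 to 1 with 1 library left out. At ZT12 no call became 0 to 6, with 6 without adult ZT12 replicate 1. At ZT16 no call became 4 with the covariates. At ZT20 the 1 call became 0 at an adjusted p under 0.01, 0 without the aged ZT20 replicates 1 and 2, 5 with the covariates, and 0 to 1 with 1 library left out. For the test of any difference, and for ZT16 and ZT20 with the covariates, the share of all tested genes is not given here. The cause of these changes was not tested. The covariates and the removal of the adult ZT12 replicates 3 and 4 were chosen after the data were seen.

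With a replicate block, 26 genes were called in aged and 24 in adult epidermis, and 6 were higher in aged. Same-numbered libraries deviated together by more than 0.1 in 11 of 24 pairs (r from -0.60 to 0.58). At ZT12 the values of replicates 1 to 4 were 0.16, 0.42, 0.22 and 0.19. Libraries of different numbers were not compared, so these values cannot show whether the numbers pair the libraries. Counting precision is limited for Ccne1, with as few as 30 reads in a library.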
